A study of Mus musculus with 19 samples.

Results

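The genes of the TNF receptors and of the adaptors that pass their signal on were examined in an ATAC-seq series of mouse neural stem cells differentiating into astrocytes. There were 10 genes among 21900 protein-coding genes of the annotation, namely Tnf, Tnfrsf1a, Tnfrsf1b, Traf1, Traf2, Traf3, Ripk1, Birc2, Birc3 and Cflar. A peak was taken for a gene when its centre lay in the gene body or within 20 kb of either end, on the GRCm38 coordinates of RefSeq. This gave 48 of the 90154 peaks in the series. Each of them was 500 bp wide, and all 48 passed the filter on low values. Birc2 and Birc3 are neighbours, so their 3 peaks are the same and were counted once.

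TNF is a cytokine that binds a pair of receptors, TNFR1 (encoded by Tnfrsf1a) and TNFR2 (encoded by Tnfrsf1b). The occupied receptors recruit TRAF adaptors, the kinase RIPK1 and the ubiquitin ligases cIAP1 and cIAP2 (encoded by Birc2 and Birc3), which switch on NF-κB and MAP kinase signalling. When this complex is not held together, RIPK1 and caspase-8 can start cell death, and cFLIP (encoded by Cflar) restrains caspase-8. Several of these genes are known NF-κB targets, so the pathway feeds back on itself. Astrocytes carry both receptors and respond to TNF in inflammation.

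The cells came from the ventricular zone of wild-type C57BL/6J embryos at embryonic day 14 and were grown as neurospheres (NSPs) with EGF. Differentiation was started by moving them to medium with 10% serum. The groups were NSPs (3 libraries), cells differentiated for 24 h (3) or 72 h (3), cells differentiated for the same times with TNF at 50 ng/ml (3 and 3), and cells differentiated for 1 week without TNF (4). There was no group with TNF at 1 week. The labels do not say which libraries came from the same brain or culture, so the p-values measure the spread between these libraries, which may be technical. All groups share the strain and the neurosphere origin, and no sorting for astrocytes is stated for these libraries.

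ATAC-seq marks DNA that the transposase can reach, and each value below is a normalised signal, the reads of a peak divided by a factor per library. The libraries held between 9640256 and 39349111 reads in peaks, with replicates correlated at Spearman's rho between 0.913 and 0.982 across peaks. Of 6 astrocyte markers 5 had a peak at their start, and Aqp4 had none. These 5 did not move together, since the mean signal in NSPs, at 24 h and at 72 h was 108, 489 and 529 for Gfap but 562, 372 and 282 for S100b and 89.3, 91.5 and 40.1 for Aldh1l1. Their sum was 1195 to 1360.1 at 24 h and 951 to 1101 with TNF, and 1303 to 1372 at 72 h and 902 to 925 with TNF, so it did not overlap between TNF groups and controls. At 24 h the mean of Slc1a3 went from 189 to 217 with TNF. Those of Gfap (489 to 369), S100b, Aldh1l1 and Gja1 were lower with TNF at that time. At 72 h all these means were lower with TNF, from 529 to 246 for Gfap and from 270 to 256 for Slc1a3. The sum of the 5 neural stem and progenitor markers was 3241 to 3541 in NSPs, 2138 to 2474 at 24 h, 2176 to 2421 at 72 h and 3136 to 3274 at 1 week, and with TNF it overlapped the controls, at 2172 to 2382 and 2383 to 2508. The means of these markers did not move together. In NSPs, at 24 h, at 72 h and at 1 week Prom1 read 162, 208, 322 and 390. In the same order Sox2 read 1258, 984, 926 and 1280, and Mki67 read 704, 358, 303 and 396. Olig2, the only one of 4 oligodendrocyte markers with a start peak, read 1339 to 1673 in NSPs, 639 to 685 at 24 h, 342 to 398 at 72 h and 422 to 530.5 with TNF at 72 h, above its control. Of the neuronal markers 2 of 4 had a start peak, with a sum of 414 to 651 over all libraries. Of the microglial markers 1 of 6 had one, P2ry12, with 32.3 to 86.2, and of the endothelial and mesenchymal markers 0 of 4. The part of these marker levels in the results below was not tested, and a shift in the share of a cell type and a change within cells cannot be told apart in bulk libraries.

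The promoters are shown first, because they split the genes into those with and those without an open start. A peak centre within 1 kb of an annotated start was found for 6 genes, Tnfrsf1a, Traf2, Traf3, Ripk1, Birc2 and Cflar. The table lists none there for the other 4 genes. Their nearest peak lay 6.18 kb (Tnf), 7.25 kb (Tnfrsf1b), 7.33 kb (Traf1) and 17.6 kb (Birc3) from the start. In 12 RefSeq windows from 250 bases before to 50 bases after a start, an NF-κB pattern (GGG, 2 bases of any kind, TT, 1 of any kind, CC) was searched on both strands. It was found in 2 windows, those of Traf3 and Traf2, which is 16.7% against 4.98% of 21230 windows of protein-coding genes. The AP-1 pattern TGANTCA, with N for any base, was in 0 of the 12 windows, against 6.99% of the 21230. The windows below read 5′ to 3′ on the strand of the gene (GRCm38.p6), with capitals for a match to the NF-κB pattern. Traf3 and Traf2 are shown for their matches, Birc2 as an open start without one, and Tnf as a start without a peak.
Traf3, chr12:111166120-111166419, plus strand: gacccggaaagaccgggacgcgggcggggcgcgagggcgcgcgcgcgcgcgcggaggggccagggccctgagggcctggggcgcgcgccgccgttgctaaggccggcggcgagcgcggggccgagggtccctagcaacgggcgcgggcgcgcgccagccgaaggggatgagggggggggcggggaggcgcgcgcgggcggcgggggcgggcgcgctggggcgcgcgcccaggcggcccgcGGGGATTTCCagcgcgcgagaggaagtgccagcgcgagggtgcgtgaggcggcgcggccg
Traf2, chr2:25546891-25547190, minus strand: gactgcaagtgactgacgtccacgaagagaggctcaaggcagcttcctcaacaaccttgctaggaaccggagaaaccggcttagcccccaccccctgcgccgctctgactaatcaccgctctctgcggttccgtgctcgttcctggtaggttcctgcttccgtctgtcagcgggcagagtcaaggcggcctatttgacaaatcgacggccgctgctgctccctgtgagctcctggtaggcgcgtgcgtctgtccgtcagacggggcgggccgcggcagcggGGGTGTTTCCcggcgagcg
Birc2, chr9:7837008-7837307, minus strand: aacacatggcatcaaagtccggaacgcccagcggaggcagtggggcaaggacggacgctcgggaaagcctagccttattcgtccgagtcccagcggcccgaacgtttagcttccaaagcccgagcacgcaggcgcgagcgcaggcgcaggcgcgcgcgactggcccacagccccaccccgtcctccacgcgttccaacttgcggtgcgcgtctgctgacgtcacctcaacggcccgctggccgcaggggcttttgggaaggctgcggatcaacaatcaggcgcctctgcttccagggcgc
Tnf, chr17:35201958-35202257, minus strand: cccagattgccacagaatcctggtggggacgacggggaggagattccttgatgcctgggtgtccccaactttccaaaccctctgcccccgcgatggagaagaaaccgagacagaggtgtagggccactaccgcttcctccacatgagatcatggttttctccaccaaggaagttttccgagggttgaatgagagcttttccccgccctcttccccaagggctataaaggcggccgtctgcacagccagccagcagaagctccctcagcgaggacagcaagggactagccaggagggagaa
The match of Traf3 ends on the base before the start, and that of Traf2 lies from base 31 to base 40 after it. Both lie inside the start peak of their gene. The Traf3 window is 84% G and C and holds 59 CpGs. The windows that touch a member peak hold 11 to 59 CpGs, and those of the 4 genes without a start peak hold 4 to 13, so the ranges meet. A match of letters is a description and not a bound site.

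With TNF, 12 of the 48 peaks were called at 24 h or 72 h. Of these 11 gained signal and 1 lost it, and 1 of the 12 was a start peak. The share of all tested peaks called at either time was not taken, and the shares at each time follow. At 24 h, 8 of 48 peaks were higher and 1 was lower (limma, Benjamini-Hochberg adjusted p under 0.05), where 7.06% of all 88919 tested peaks were higher and 3.53% were lower. Log2 changes are on the scale of log2(value + 1), are given ± SE, and have p-values adjusted over all tested peaks. At 72 h, 10 were higher and 1 was lower, against 6.24% higher and 5.55% lower over all peaks. The share of higher peaks among the 48 was 16.7% at 24 h and 20.8% at 72 h. The median log2 change of the 48 was 0.16 at 24 h and 0.18 at 72 h, against -0.03 and 0.03 over all tested peaks. Of the 11 peaks higher at either time, 5 belong to Traf2, 3 to Tnfrsf1a, 2 to Birc2 and Birc3 and 1 to Traf3. No peak of Tnf, Tnfrsf1b, Ripk1 or Cflar was called with TNF at either time. Of the 6 start peaks, 0 were called at 24 h, where limma gave an unadjusted p under 0.05 for 1, edgeR called 0, and DESeq2 and scaling by total reads called 1 each. At 72 h, 1 was higher. Over all 9843 start peaks of the series, 1.06% were higher and 0.325% lower at 24 h, and 2.8% higher and 0.681% lower at 72 h.

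**Figure D1:**
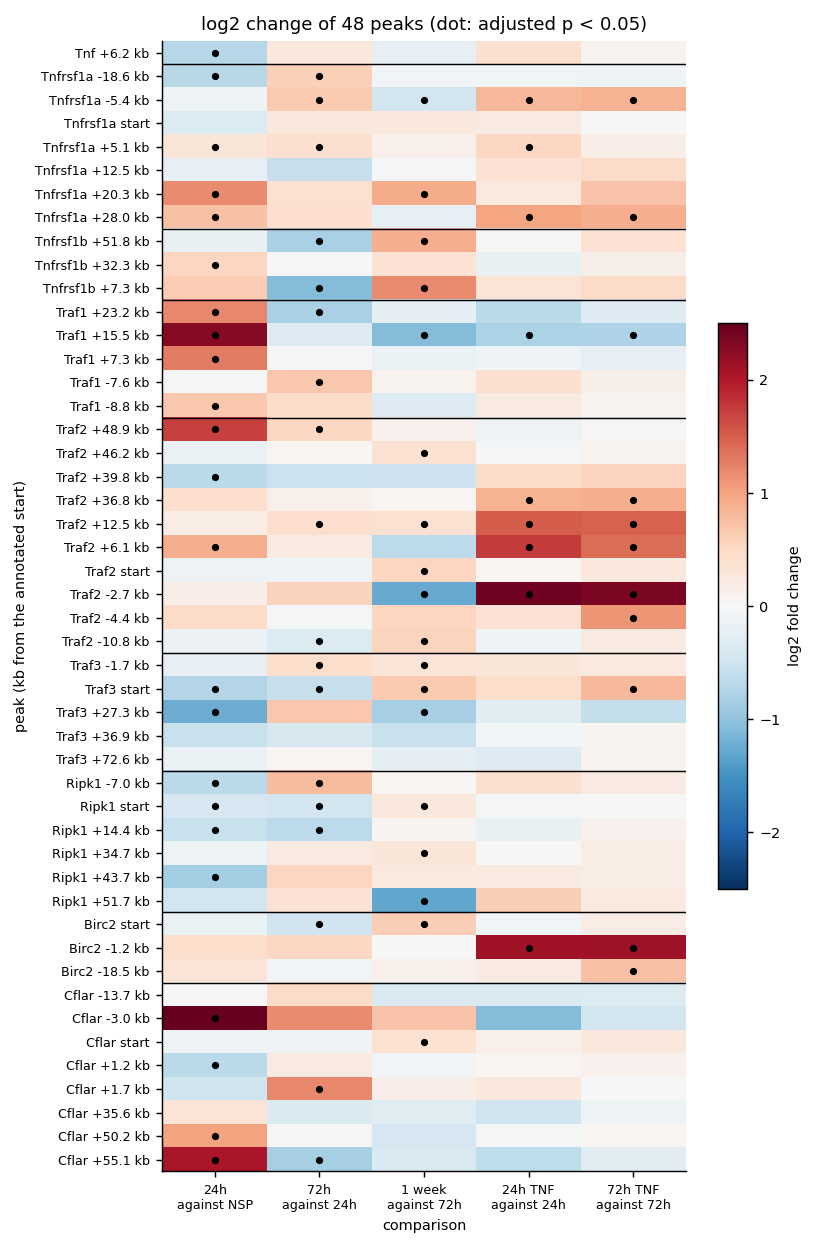
log2 fold change of the 48 peaks (vertical axis, grouped by gene, named by the distance in kb from the annotated start) in 5 comparisons (horizontal axis), with red for higher, blue for lower and a dot for an adjusted p under 0.05. In the TNF columns the dots on red fall on Tnfrsf1a, Traf2, Birc2 and, at 72 h, the Traf3 start, and the dots on blue on Traf1 +15.5 kb.

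Traf2, an adaptor that carries the cIAP ligases to the receptors, had the most peaks of the genes, 10. It also had the most called higher with TNF, 4 at 24 h and 5 at 72 h. Of the 3 peaks of Birc2 and Birc3, 1 was higher at 24 h and 2 at 72 h. The peak 12.5 kb into the gene (chr2:25534145-25534645, in the gene body) read 293, 286 and 266 at 24 h and 806, 711 and 898 with TNF. At 72 h it read 381, 374 and 369.6 without and 996, 1049 and 1079 with TNF. Every TNF library was above every library of the other groups, since NSPs read 218, 276 and 253 and the 1-week cells 423, 455, 589.8 and 514. The log2 change was 1.51 ± 0.12 (adjusted p = 2.73e-09) at 24 h and 1.47 ± 0.12 (adjusted p = 4.19e-09) at 72 h. This was the smallest p among the 48 peaks in both comparisons. Without TNF this peak also rose from 24 h to 72 h, by 0.41 ± 0.12 (adjusted p = 0.015), with an adjusted p of 0.0518 without 24h replicate 3.

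Other Traf2 peaks of lower signal were called at one or both times, and were named after their values were seen. The peak 2.7 kb upstream (chr2:25549361-25549861) read 17.1, 17.7 and 35.7 at 24 h and 132, 101 and 143 with TNF, and 19.3, 49.0 and 39.5 at 72 h and 175, 136 and 222 with TNF. The groups did not overlap at either time, with log2 changes of 2.43 ± 0.39 (adjusted p = 8.40e-05) and 2.34 ± 0.39 (adjusted p = 0.000133). Without TNF it read at most 49.0 in any library, and at 1 week it read 10.6, 7.01, 26.4 and 16.1.

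The peak 6.1 kb into Traf2 read 33.0, 22.1 and 25.9 at 24 h and 82.2, 77.6 and 119 with TNF, a log2 change of 1.74 ± 0.34 (adjusted p = 0.000712). The readings at 72 h were 23.2, 34.7 and 37.0 without and 105, 73.9 and 74.4 with TNF, a change of 1.40 ± 0.34 (adjusted p = 0.00536). The groups did not overlap at either time. The peak 4.4 kb upstream was called at 72 h, reading 73.3, 56.2 and 77.8 without and 171, 130.1 and 149 with TNF (1.11 ± 0.25, adjusted p = 0.0029). At 24 h its log2 change was 0.36 ± 0.25 (adjusted p = 0.438). The groups overlapped there, with 1 TNF library at 126 above the rest. The peak 36.8 kb downstream of the start lies outside the gene and is nearest to Fbxw5. It was called at both times near the threshold, with 0.87 ± 0.29 (adjusted p = 0.0492) and 0.90 ± 0.29 (adjusted p = 0.0365). These calls are weak, since that at 24 h was kept in 9 of 29 other settings and that at 72 h in 20 of 29. The call at 24 h was lost on leaving out any of 14 libraries (adjusted p of 0.0514 to 0.299), with no filter and with edgeR. It was also lost with scaling by TMM or total reads and with either replicate block, from the sample titles or the library names. The call at 72 h was lost on leaving out any of the 6 libraries compared (0.0505 to 0.143), with total reads and with either replicate block.

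The Traf2 start itself did not pass the test with TNF. It was the strongest member peak, with 1397, 1169.8 and 1230.5 at 24 h and 1273, 1328 and 1312 with TNF, a log2 change of 0.05 ± 0.11 (adjusted p = 0.864) with a 95% interval from -0.17 to 0.26. Its signal at 72 h was 1184, 1041 and 1281 without and 1202, 1509 and 1533 with TNF, a change of 0.27 ± 0.11 (adjusted p = 0.0939) with an interval from 0.06 to 0.49. The groups overlapped at both times. Of the 10 Traf2 peaks, the remaining 4 were not called with TNF and lay between 10.8 kb upstream and 48.9 kb downstream. A pair of them touch promoter windows of neighbours, C8g and Fbxw5 at +46.2 kb and Edf1 at -10.8 kb. The signal summed over the 10 peaks was 3003 to 3295 at 24 h and 3750 to 3887 with TNF, and 2788 to 3197 at 72 h and 4107 to 4600 with TNF.

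Birc2 and Birc3 encode the ubiquitin ligases cIAP1 and cIAP2, which add ubiquitin chains to RIPK1. The peak between the genes, 1.22 kb upstream of a Birc2 start (chr9:7838025-7838525), read 31.9, 45.7 and 70.2 at 24 h and 166, 215 and 239 with TNF. The signal at 72 h was 61.8, 59.8 and 82.8 without and 339.7, 269 and 281 with TNF. The TNF libraries did not overlap the controls at either time, and the log2 changes were 2.10 ± 0.27 (adjusted p = 4.46e-06) and 2.11 ± 0.27 (adjusted p = 4.22e-06). NSPs read 36.2, 29.2 and 37.9, and the 1-week cells 84.6, 84.9, 37.4 and 77.2. In no comparison without TNF was this peak called.

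The Birc2 start, next to it, did not pass the test with TNF. It read 1495, 1542 and 1277 at 24 h and 1360.1, 1518 and 1256 with TNF, a log2 change of -0.06 ± 0.12 (adjusted p = 0.845) with a 95% interval from -0.31 to 0.19. At 72 h the change was 0.18 ± 0.12 (adjusted p = 0.395) with an interval from -0.07 to 0.43, and the libraries overlapped. The third peak lies inside the Birc3 gene, 18.5 kb upstream of Birc2 and 17.6 kb from the start of Birc3. It read 111, 99.3 and 76.5 at 72 h and 163, 136 and 180.0 with TNF (0.74 ± 0.20, adjusted p = 0.0138), a gain with no overlap. This call was lost without 72h replicate 3, 72h TNF replicate 1 or 72h TNF replicate 3 (adjusted p of 0.0507 to 0.0968). It was also lost with a replicate block from the library names. At 24 h it read 99.1, 87.0 and 115 without and 112, 131 and 102 with TNF, which overlapped (0.20 ± 0.20, adjusted p = 0.643). Distance alone does not assign a peak to Birc2 or to Birc3.

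**Figure D2:**
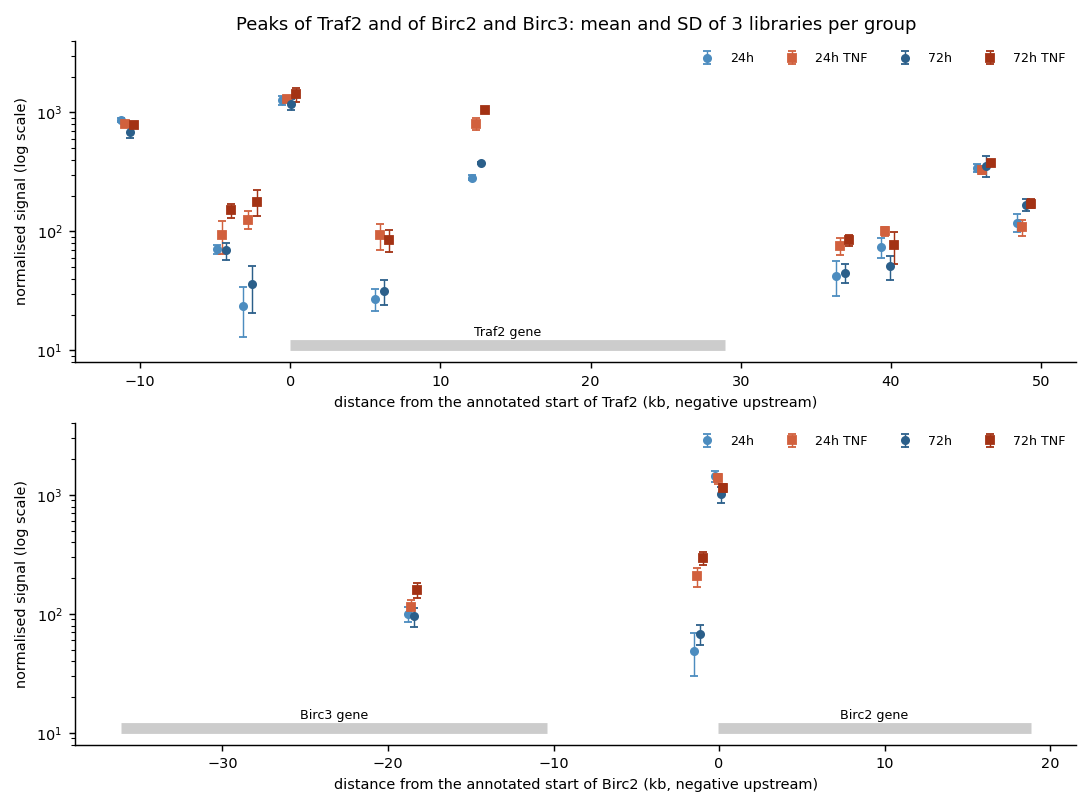
Mean normalised signal (vertical axis, log scale) with SD of 3 libraries for each peak of Traf2 (upper panel) and of Birc2 and Birc3 (lower panel) by distance from the start in kb, with grey bars for the genes, circles for untreated and squares for TNF-treated cells. The squares lie above the circles at Traf2 -2.7, +6.1 and +12.5 kb and at Birc2 -1.2 kb, and at the Birc2 start the untreated mean is 1438 at 24 h and 1018 at 72 h.

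Tnfrsf1a encodes TNFR1, the receptor with a death domain. Of its 7 peaks, 3 were higher with TNF at 24 h and 2 at 72 h. The peak 5.42 kb upstream, inside the neighbouring gene Scnn1a, read 138, 129.8 and 103 at 24 h and 229.9, 212 and 216 with TNF (0.83 ± 0.18, adjusted p = 0.00203). At 72 h it read 174, 207 and 201 without and 369, 322 and 379 with TNF (0.88 ± 0.18, adjusted p = 0.00117), and the groups were apart at both times. The peak 28.0 kb downstream, inside Plekhg6, gained at both times too, with 0.98 ± 0.21 (adjusted p = 0.00216) at 24 h and 0.90 ± 0.21 (adjusted p = 0.00423) at 72 h. Without TNF, the peak 5.42 kb upstream also rose from 24 h to 72 h (0.65 ± 0.18, adjusted p = 0.00735). At 1 week it read 159, 184, 99.0 and 137. The peak at 28.0 kb also rose from NSPs to 24 h (0.72 ± 0.21, adjusted p = 0.00558), a call lost when only the groups compared were fitted.

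The peak 5.11 kb into Tnfrsf1a passed the test at 24 h. It read 269.8, 277 and 307 without and 399.7, 385 and 437 with TNF (0.52 ± 0.12, adjusted p = 0.00327). At 72 h it read 376, 364 and 382 without and 422, 417 and 426 with TNF, apart as well but by less (0.17 ± 0.12, adjusted p = 0.378). The difference between the times did not pass the interaction test (limma, adjusted p = 0.657). Without TNF this peak also rose, from NSPs to 24 h (0.30 ± 0.12, adjusted p = 0.0318) and from 24 h to 72 h (0.39 ± 0.12, adjusted p = 0.0123). At 1 week it read 449, 391, 367 and 424, which overlapped the TNF libraries at 24 h. The first call was lost without NSP replicate 3 or 24h replicate 3 and when only the groups compared were fitted. The second was lost without 24h replicate 1. The Tnfrsf1a start read 164, 204 and 132 at 24 h and 187, 181 and 207 with TNF, and 209.7, 199 and 181 at 72 h and 219, 161 and 208 with TNF. These overlapped, and the 95% intervals of the log2 change were -0.11 to 0.55 (24 h) and -0.35 to 0.32 (72 h).

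Traf3 encodes an adaptor that restrains the NF-κB-inducing kinase, and its start was the only one of the 6 that passed with TNF. It read 245, 288 and 201 at 24 h and 310.4, 358 and 315 with TNF, which was apart but missed the threshold (0.43 ± 0.15, adjusted p = 0.0543). After 72 h it read 135, 195 and 158 without and 272, 265 and 314 with TNF, with no overlap (0.81 ± 0.15, adjusted p = 0.000341). The gain at 72 h was made against controls that had fallen, since NSPs read 446, 395 and 366. The interaction with time gave an adjusted p of 0.707. The peak 1.73 kb upstream of the Traf3 start read 486, 438 and 447 at 24 h and 540.3, 560.2 and 581 with TNF, with 0.29 ± 0.11 (adjusted p = 0.0839).

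Traf1 encodes a TRAF without the RING domain and is a textbook NF-κB target. It had the only peak called lower with TNF, 15.5 kb into the gene (chr2:34946042-34946542). It read 190.1, 121 and 188 at 24 h and 113, 77.6 and 92.4 with TNF (-0.80 ± 0.24, adjusted p = 0.0257). At 72 h it read 121, 152 and 119 without and 71.5, 76.9 and 76.8 with TNF (-0.78 ± 0.24, adjusted p = 0.0277). The groups did not overlap, but the call depended on single libraries. At 24 h it was lost without 24h replicate 1 or 3 or 24h TNF replicate 2 or 3 (adjusted p of 0.0802 to 0.135). At 72 h it was lost without 72h replicate 1 or 2 or any 72h TNF replicate (0.0581 to 0.126), and with a replicate block from the library names. Among the other 4 peaks of Traf1, the highest in signal was 7.63 kb upstream and read 181, 184 and 208 at 24 h and 255, 228 and 280.4 with TNF, which did not pass (0.41 ± 0.15, adjusted p = 0.0729). Peaks not called could also read lower with TNF at 24 h without overlap. Among them were Cflar -3.0 kb (-1.09 ± 0.47, adjusted p = 0.148) and Traf1 +23.2 kb (-0.67 ± 0.31, adjusted p = 0.182). At 72 h the groups overlapped at both.

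**Figure D3:**
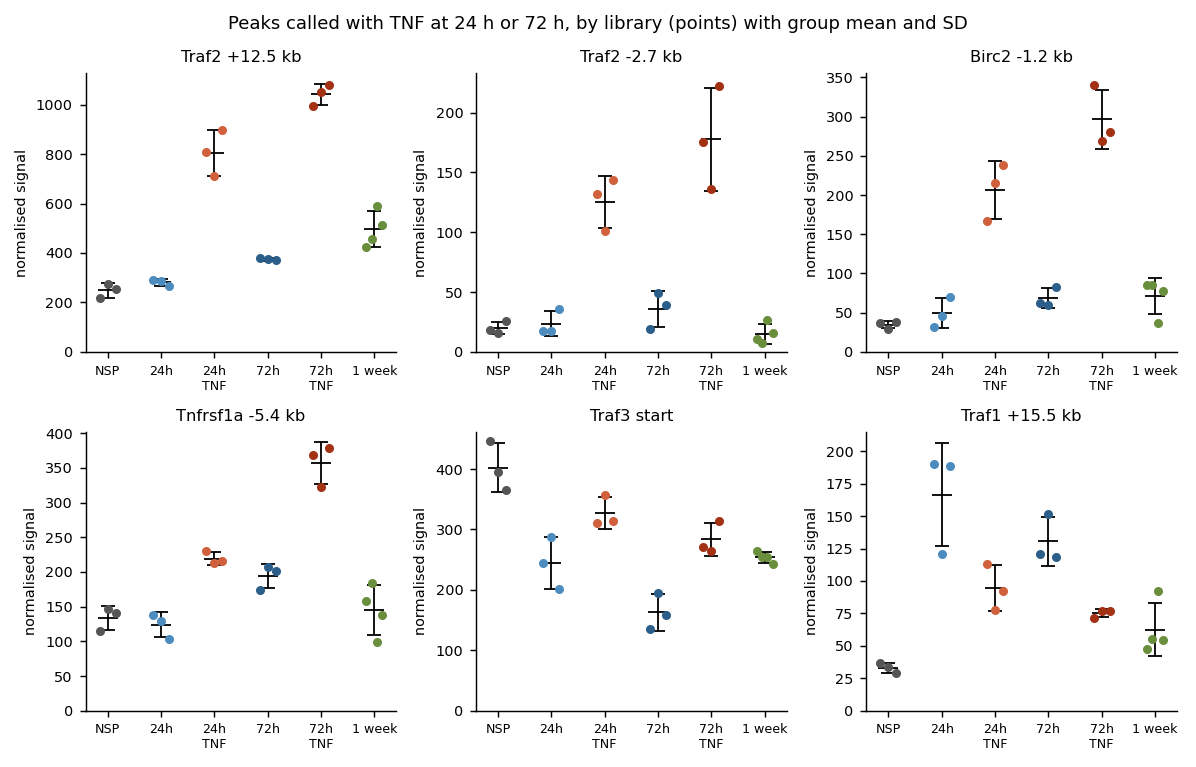
Normalised signal (vertical axis, from 0) of 6 peaks called with TNF at 24 h or 72 h in each library of the 6 groups (horizontal axis), with points for libraries and bars for the group mean and SD. At Traf2 +12.5 kb all 6 TNF-treated libraries read between 711 and 1079, above every untreated library, and Traf1 +15.5 kb runs the other way.

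The peaks of Tnf, Tnfrsf1b, Ripk1 and Cflar did not pass with TNF. The single peak near Tnf, the gene of the ligand, lies inside Ltb, the gene of lymphotoxin beta, 6.18 kb beyond the Tnf start. It read 92.2, 91.5 and 124.4 at 24 h and 157, 134 and 115 with TNF, and 144, 105 and 119.8 at 72 h and 154, 109 and 131 with TNF, with overlap at both times. The start of Ripk1, the kinase at the branch between survival and death, read 671, 639 and 574 at 24 h and 586, 566 and 667 with TNF. For its log2 change the 95% interval was -0.28 to 0.18 at 24 h. At 72 h the interval was -0.22 to 0.25. The start of Cflar, the gene of the caspase-8 inhibitor, read 185, 234 and 182 at 72 h and 266, 256 and 198 with TNF, with an interval from -0.04 to 0.55. For Tnfrsf1b, TNFR2, the peak 7.25 kb into the gene read 165, 133 and 156 at 24 h and 205, 187 and 179.7 with TNF, apart but not called (0.34 ± 0.28, adjusted p = 0.546).

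The TNF comparisons at 24 h and at 72 h share no library, so they were set side by side. Of the 48 peaks, 7 were higher at both times, 1 was lower at both, 1 was higher at 24 h alone, 3 were higher at 72 h alone and 36 were called at neither. The log2 change had the same sign in 36 of 48. Across the 48 peaks Pearson's r was 0.92 and Spearman's rho 0.81, a description over peaks that share the libraries and are not independent. These joint counts, signs and correlations were not taken over all tested peaks. They are therefore not read as particular to these genes. In the interaction of TNF with time, 0 of 48 peaks were called by limma, edgeR or DESeq2. At an unadjusted p under 0.05, limma gave 2 of 48. Over all tested peaks 0.0% were higher and 0.00112% lower in this test.

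**Figure D4:**
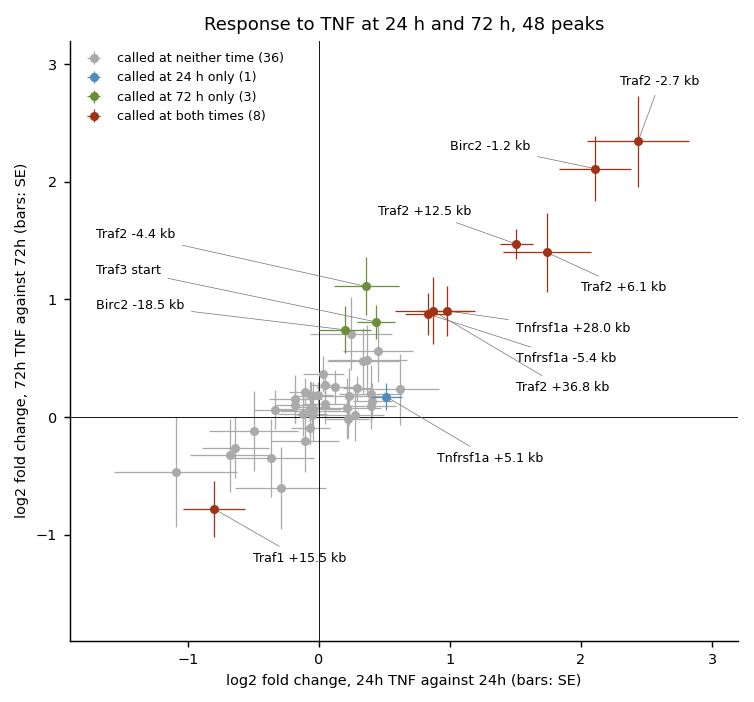
log2 fold change with TNF at 24 h (horizontal axis) and at 72 h (vertical axis) for the 48 peaks, with SE as bars and colour for the times at which the peak was called. The 7 peaks higher at both times lie at the upper right, the 3 called at 72 h alone sit left of them, and Traf1 +15.5 kb is at the lower left.

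During differentiation without TNF, the peaks moved both ways, and their shares were not tested against those of all peaks. From NSPs to 24 h, 13 of 48 (27.1%) were higher and 10 (20.8%) lower, against 24.2% and 23.0% of all tested peaks. With libraries scaled by total reads in peaks these were 17 and 7, against 29.4% and 13.9% of all tested peaks under that scaling. From 24 h to 72 h, 9 (18.8%) were higher and 9 (18.8%) lower, against 12.0% and 14.3%. The libraries at 72 h and 1 week carry a tag in their names that those of NSPs and 24 h lack, so this tag and the step from 24 h to 72 h cannot be told apart. From 72 h to 1 week, 13 (27.1%) were higher and 5 (10.4%) lower, against 22.5% and 16.2%. Scaling by total reads turned this last split to 4 higher and 16 lower, against 8.95% and 33.8% of all tested peaks under that scaling. Over all tested peaks that scaling took the median change from 0.02 to -0.31, and for NSPs to 24 h it took it from -0.07 to 0.11.

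At the starts, the calls of the 6 genes went in the direction of most calls at start peaks of the series. From NSPs to 24 h 2 of 6 were lower and 0 higher, where 43.9% of all 9843 start peaks were lower and 3.21% higher. From 24 h to 72 h 3 of 6 were lower and 0 higher, against 24.5% and 6.22%. From 72 h to 1 week 5 of 6 were higher and 0 lower, against 63.1% higher and 3.95% lower, and nothing particular to the 6 is read from these counts. With scaling by total reads 1, 3 and 2 of the 6 kept their calls in the 3 steps, while 18.9% and 20.2% of all start peaks were lower and 24.6% higher. The summed progenitor markers given above were also lower at 24 h and 72 h than in NSPs and at 1 week. This holds for the sum and not for each marker, since Prom1 rose at each step. Their part in these changes was not tested. The Traf3 start went from 446, 395 and 366 in NSPs to 245, 288 and 201 at 24 h, 135, 195 and 158 at 72 h and 264, 254, 255 and 242 at 1 week. Each step passed the test, with -0.73 ± 0.15 (adjusted p = 0.000155), -0.58 ± 0.15 (adjusted p = 0.00377) and 0.65 ± 0.14 (adjusted p = 0.000431). The last of these missed the threshold under total reads, at a log2 change of 0.31.

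Ripk1 fell at its start up to 72 h, at a peak whose centre also lies inside the neighbouring gene Serpinb6a. It read 821, 821 and 881 in NSPs, 671, 639 and 574 at 24 h, 438, 470.1 and 463 at 72 h and 572, 465, 592 and 582 at 1 week. The 3 NSP libraries stood above all the others. The falls were -0.42 ± 0.11 (adjusted p = 0.00298) and -0.46 ± 0.11 (adjusted p = 0.00374). For the Ripk1 start in 24h against NSP, scaling by total reads gave -0.23 (adjusted p = 0.0753), which missed the threshold. The rise at 1 week (0.27 ± 0.11, adjusted p = 0.0453) overlapped, was lost on leaving out any of 8 libraries (adjusted p of 0.0502 to 0.138), and turned to -0.07 under total reads. The peak 14.4 kb into Ripk1 fell alongside, from 734, 892 and 964 in NSPs to 583, 709.6 and 484 at 24 h and 297, 413 and 424 at 72 h (-0.55 ± 0.15, adjusted p = 0.00295 and -0.65 ± 0.15, adjusted p = 0.00177).

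Birc2 and Traf2 had the strongest starts, and both were higher at 1 week than at 72 h. The Birc2 start read 1809.7, 1397 and 1618 in NSPs, 853, 1031 and 1170.1 at 72 h and 1505, 1429, 1791 and 1483 at 1 week. It was lower at 72 h than at 24 h (-0.50 ± 0.12, adjusted p = 0.00314) and higher at 1 week (0.61 ± 0.12, adjusted p = 0.000136). The Traf2 start read 1433, 1322 and 1373 in NSPs and 1710.5, 1642, 1741 and 1710.3 at 1 week, and the rise from 72 h was 0.55 ± 0.10 (adjusted p = 8.76e-05). The Cflar start read 185, 234 and 182 at 72 h and 266, 261, 233 and 288 at 1 week (0.39 ± 0.14, adjusted p = 0.0235), with overlap. That call was lost without 72h replicate 1 or 3 or 1 week replicate 4 (adjusted p of 0.0687 to 0.108). It was also lost with scaling by total reads or TMM, with edgeR and with a replicate block from the sample titles. The Tnfrsf1a start was not called in any comparison, and its group means ran from 166 at 24 h to 237 at 1 week.

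**Figure D5:**
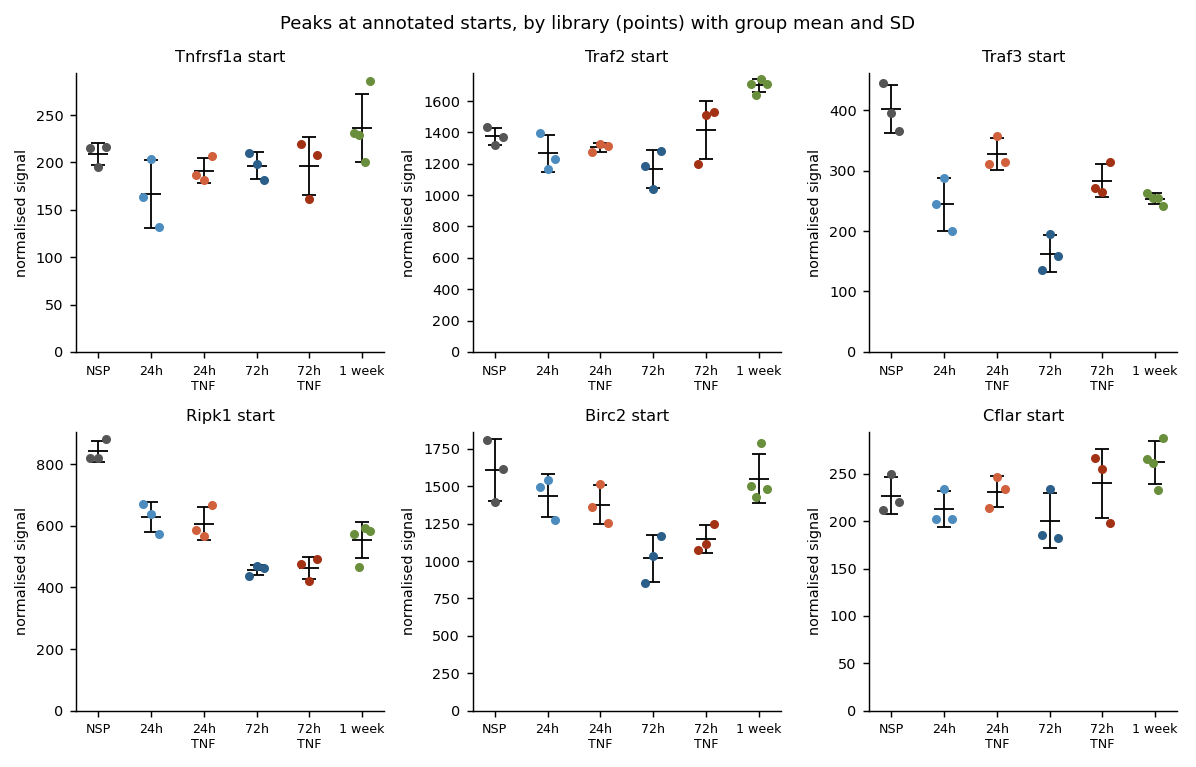
Normalised signal (vertical axis, from 0) at the start peaks of 6 genes in each library of the 6 groups (horizontal axis), with points for libraries and bars for the group mean and SD. Traf3, Ripk1 and Birc2 are lowest in the untreated 72h group, and Traf3 with TNF at 72 h lies above its control, at 265 to 314 against 135 to 195.

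Away from the starts, the largest changes came in the first 24 h. The Traf1 peak 15.5 kb into the gene read 36.8, 33.4 and 29.2 in NSPs and 190.1, 121 and 188 at 24 h (2.27 ± 0.24, adjusted p = 4.68e-09). It was back down to 47.6, 55.3, 92.4 and 54.7 at 1 week (-1.09 ± 0.22, adjusted p = 0.000313). Of the 5 Traf1 peaks 4 were higher at 24 h than in NSPs and 0 lower, where 24.2% of all peaks were higher. At 2 of these 4, Traf1 +23.2 kb and Traf1 -8.8 kb, the libraries overlapped. The call of Traf1 -8.8 kb (0.67 ± 0.26, adjusted p = 0.0336) was lost without NSP replicate 1 or 24h replicate 2 or 3 (0.0834 to 0.24) and when only the groups compared were fitted. The Cflar peak 55.1 kb from the start, beyond the gene, read 22.8, 27.3 and 29.9 in NSPs and 137, 92.9 and 113 at 24 h (2.05 ± 0.26, adjusted p = 1.43e-07), and less at 72 h, 75.9, 45.5 and 73.9 (-0.82 ± 0.26, adjusted p = 0.0181). The second call was lost without 24h replicate 1 or 72h replicate 2 (0.0953 to 0.13). Among the 6 groups this peak was highest in the untreated cells at 24 h.

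The Traf2 peak 48.9 kb from the start, nearest to C8g, went from 39.7, 37.7 and 28.6 in NSPs to 139, 118 and 98.5 at 24 h (1.72 ± 0.18, adjusted p = 9.31e-09) and stayed up, with 190.4, 150.4, 202 and 184 at 1 week. Next to Cflar, the peak 2.99 kb upstream was the lowest member in NSPs, at 6.43, 0.471 and 8.64. The lowest of these values is 1 read, the smallest the table holds. It rose to 28.5, 22.1 and 25.9 at 24 h (2.48 ± 0.47, adjusted p = 7.05e-05) and read 116, 82.6, 106 and 91.1 at 1 week, the highest of the 6 groups. It was named after its values were seen.

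Other peaks fell or dipped. The peak near Tnf fell from 155, 180.4 and 169 in NSPs to 92.2, 91.5 and 124.4 at 24 h (-0.72 ± 0.19, adjusted p = 0.00264), its only call. The peak 18.6 kb upstream of Tnfrsf1a, inside Scnn1a, read 213, 315 and 322 in NSPs, 162, 189 and 168 at 24 h and 253, 275 and 256 at 72 h, with -0.69 ± 0.15 (adjusted p = 0.000403) and then 0.60 ± 0.15 (adjusted p = 0.00394). Near Tnfrsf1b the dip came at 72 h. The peak 51.8 kb from its start, which covers the promoter window of Vps13d, read 311, 297 and 261 at 24 h, 174, 136 and 189 at 72 h and 317, 352, 295 and 287 at 1 week (-0.81 ± 0.16, adjusted p = 0.00035 and 0.92 ± 0.15, adjusted p = 1.94e-05). In the gene itself, the peak 7.25 kb from the start went from 165, 133 and 156 to 74.6, 63.4 and 75.2 and then 153, 178, 227 and 110.4 (-1.08 ± 0.28, adjusted p = 0.00466 and 1.18 ± 0.26, adjusted p = 0.000726). The last Ripk1 peak, 51.7 kb from the start and inside Bphl, fell from 42.5, 56.2 and 45.9 at 72 h to 16.8, 11.7, 28.6 and 22.5 at 1 week (-1.30 ± 0.28, adjusted p = 0.000688).

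The limit of 20 kb decided some of these. The members farthest out were Traf2 +48.9 kb and Ripk1 +51.7 kb, 19.9 and 19.4 kb beyond their genes. The nearest peaks left out lay 20.6 kb from Tnf, with group means of 107 to 138, and 20.7 kb from Traf1, with 183 in NSPs and 431 at 24 h. With a limit of 5 kb, 5 peaks were higher with TNF at 24 h and 7 at 72 h. Fewer peaks were counted there and no share was taken, so these counts are not read against those of all peaks.

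Of 34 further genes of the pathway, 23 had a start peak. With TNF, 2 of the 23 gained signal at 24 h and 3 gained it at 72 h, where 1.06% and 2.8% of all start peaks did, and 0 lost signal at either time. Of the 5 inhibitors, all with a start peak, 1 was higher at 24 h and 2 at 72 h. These were Tnip1, a partner of A20, with 2.21 ± 0.43 (adjusted p = 0.000842) at 24 h and 2.76 ± 0.43 (adjusted p = 6.29e-05) at 72 h, and Tnfaip3, the gene of A20, with 0.59 ± 0.13 (adjusted p = 0.00189) at 72 h. Of 8 other death receptor and TNF receptor family genes 6 had a start peak, and that of Fas was higher at both times (0.69 ± 0.12, adjusted p = 0.000153 and 0.80 ± 0.12, adjusted p = 1.98e-05). The 10 start peaks of the ubiquitin and kinase complexes and the 2 of the death adaptors had 0 calls with TNF at either time, and limma gave an unadjusted p under 0.05 for 1 of these 12 at 24 h and 1 at 72 h. In windows of 20 kb around the 34 genes, 20 of 168 peaks (11.9%) were higher and 3 (1.79%) lower at 24 h, against 7.06% and 3.53% of all peaks. At 72 h 15 (8.93%) were higher and 11 (6.55%) lower, near the 6.24% and 5.55% of all peaks. From 72 h to 1 week 16 of the 23 start peaks were higher and 1 lower, a share near that of all start peaks (63.1% and 3.95%). With scaling by total reads these were 9 and 3.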

How the data were processed

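ATAC-seq was performed by the authors on 50000 cells per reaction, in 19 libraries of 6 groups. According to the methods and the submitters' processing notes, reads were checked with FastQC, trimmed with Trim Galore, aligned with Bowtie2 to mm10 and filtered with SAMtools, and peaks were called with MACS2. How the deposited table was normalised and whether reads were shifted for the transposase are not given in the sources used here. The deposited table holds a normalised signal per peak and library, pooled over one peak list. Dividing a library's values by its lowest one gave whole numbers for 100% of them (tolerance 0.001), so they are reads divided by a factor per library. Positions are those of the table.

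Signal was transformed as log2(value + 1), which understates changes of low peaks. One limma model (version 3.58.1, limma-trend, R 4.3.3) with group means covered the 19 libraries. Of 90154 peaks, 88919 were kept by edgeR 4.0.16 (filterByExpr, minimum count 10 on recovered reads). P-values are two-sided and Benjamini-Hochberg adjusted over the kept peaks. The test planned for raw counts was replaced because the values had been normalised, and count tests (edgeR, DESeq2 1.42.0) were run as alternatives. The scripts were tested on simulated reads with known changes in 24h TNF against 24h. Of the 2-fold changes 54% were called, and of the 4-fold changes 100%. A peak that was not called can therefore still have changed. Groups were taken from the sample titles.

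Genes, starts and promoter sequences came from RefSeq tables of GRCm38.p6, in which all 10 genes matched. Peaks are named by the distance of their centre from the nearest annotated start, negative upstream. No genome sequence was used, so sequences of peaks away from starts are not shown. The genes, lists and tests were chosen with earlier results of these data known. Peaks were named by rule as the start peak, the called peak with the smallest p with TNF at 24 h, at 72 h and over untreated differentiation, and the highest peak of each gene, which gave 19. Other peaks in the text were chosen after their values were seen. Alternatives were other scalings, filters, pseudocounts (8), tools, windows (5 kb), blocks and leaving out each library.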

Additional observations from a re-analysis of the deposited data

Results flagged for a closer look

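Among 19 peaks, the 4 libraries at 1 week were searched for a value far from the rest, by the gap to its neighbour as a share of the range. At the Ripk1 start, replicate 2 read 465 where the others read 572 to 592. Without it the log2 change of the Ripk1 start in 1 week against 72h was 0.35 (limma, adjusted p = 0.0133). At the peak upstream of Birc2, replicate 3, the library with the fewest reads, read 37.4 where the others read 77.2 to 84.9. Chance gives about 1 such value in 20 groups, and 2 of 19 were found.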

How the results depend on the processing

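Of 41 calls at the 19 peaks named by rule, 27 were kept in all 29 settings, and 14 were lost in at least 1, of which 5 were lost only on leaving out a library. The counts below are of the 48 peaks, and the cause of each shift was not tested unless stated. Among these settings, shares over all tested peaks were taken for the scalings alone. The other counts are therefore not read as particular to the 48 peaks. From NSPs to 24 h, 8 were higher when only the groups compared were fitted. Within 5 kb of the genes fewer peaks were counted, and no share was taken. There 8 were higher and 6 lower from NSPs to 24 h, and 4 were higher from 24 h to 72 h. Also within 5 kb, 3 were lower from 72 h to 1 week, and 5 were higher with TNF at 24 h. From 72 h to 1 week, 4 were higher and 16 lower with scaling by total reads, against 8.95% and 33.8% of all tested peaks. With TMM scaling and with edgeR 7 were higher, where TMM gave 17.7% over all tested peaks. Under total reads the log2 change of Traf3 -1.7 kb turned to -0.019 and that of the Ripk1 start to -0.073. Scalings added after seeing the data gave, for the 23 start peaks of further pathway genes over the same step, 9 higher and 3 lower with total reads and 15 higher and 2 lower with TMM.

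The sample titles number the replicates, but same-numbered libraries of different groups did not deviate together (r of -0.04 to 0.11). No pairing by number was seen, and with so few libraries per group these values cannot exclude it. With a replicate block from the titles, 3 peaks were lower from 72 h to 1 week, and with a replicate block from the library names 0 were lower with TNF at 72 h. Neither replicate block moved another of these counts by over 1.5 times. With TNF at 24 h, 2 were lower by DESeq2 and 3 when only the groups compared were fitted. Leaving out each library in turn gave 3 to 6 lower peaks at 1 week (3 without 72h replicate 3), 0 to 2 lower with TNF at 24 h and 0 to 1 lower with TNF at 72 h.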
